A study of Mus musculus with 24 samples.

Results

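Expression of 10 genes of cell adhesion, epithelial-mesenchymal transition (EMT) and caveolae was followed in RNA sequencing libraries of mouse intestinal organoids. The genes were Cdh1, Cdh17, Ctnnb1, Epcam, Vim, Snai1, Snai2, Zeb1, Cav1 and Cav2, a list given by name and mapped to 10 of the 45706 Ensembl genes of the count tables. Organoids are small epithelial bodies that intestinal crypts form when grown in gel. All came from C57BL/6N mice with the Villin::CreERT2 transgene, which drives a tamoxifen-regulated Cre recombinase from a promoter of intestinal epithelium. The BRAF genotype was BraffloxV600E/+, the p53 genotype was Trp53LSL-R172H/+ and the BRAFp53 genotype carried both alleles, so that Cre switches on BRAFV600E, p53R172H or both. Ethanol controls are called off and cultures given 4-hydroxytamoxifen (4-HT) are called on. Small intestine (SI) organoids received 0.5 µM for 24 h with RNA at day 8, and colon (COL) organoids 3.5 µM for 24 h with RNA at day 3. The 24 libraries formed 12 groups of 2, and every group carried the Cre transgene and at least 1 inducible allele. Each genotype was 1 donor culture per tissue, kept in duplicate, so genotype and donor cannot be told apart, nor can tissue, dose and day, and p-values measure the spread between duplicates rather than between animals. Age was not given in the labels.

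E-cadherin (Cdh1) and cadherin 17 (Cdh17, the liver-intestine cadherin) join neighbouring epithelial cells through their extracellular domains. The cytoplasmic tail of E-cadherin binds β-catenin (Ctnnb1), which also acts as the nuclear effector of Wnt signalling, and Epcam is a surface glycoprotein of nearly all intestinal epithelial cells. In EMT the zinc finger factors Snai1, Snai2 and Zeb1 repress Cdh1 by binding E-boxes in its promoter, and the intermediate filament gene Vim is switched on. Caveolin 1 (Cav1) forms the coat of caveolae, small pits of the plasma membrane, together with caveolin 2 (Cav2) and cavin proteins.

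COL libraries held 51174821 to 78175143 counts and SI libraries 44350747 to 68214835 counts. Levels are in CPM (counts per 1000000, scaled by TMM). The limit of detection was set at 3 counts, equal to 0.0384 to 0.0586 CPM in COL and 0.044 to 0.0676 CPM in SI, and this limit covers counting error only. Epithelial markers (Vil1, Krt8, Krt18, Krt19, Cdx2) summed to 7215 to 29710 CPM in every library, against 0.502 to 3.33 CPM for the 7 fibroblast markers, of which Dcn and Lum were at 0 in all SI libraries. The library SI BRAF on replicate 1 stood apart. It held 770 counts of the X-inactivation transcript Xist, against 8 to 27 in the other 3 libraries of its culture and 6123 to 9743 in the SI p53 and BRAFp53 cultures, while its 1622 counts of the Y-linked Ddx3y lay within the range of its own culture. Member results that passed with this library are also given without it, and the list genes named for SI BRAF kept their calls without it. The COL BRAF culture held 1683 to 3525 counts of Gata4, a factor of the proximal small intestine, against 19 to 193 in the other COL cultures and 2824 to 7391 in SI. All 12 COL libraries had at most 3 counts of Xist and held 2405 to 4690 counts of Ddx3y. Ddx3y was at 1378 to 1881 counts in SI BRAF and at 0 to 4 in SI p53 and SI BRAFp53. For p53 and BRAFp53 the SI and COL cultures of a genotype thus differed in both sex-linked markers, as did SI BRAF and SI BRAFp53. Comparisons of these cultures cannot tell such a difference from tissue or genotype.

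The level of each gene per length of its exons was compared first. Per kb of merged exons, the median over 12 COL libraries was 278 CPM for Epcam, 270 CPM for Cdh1, 193 CPM for Cdh17 and 74.3 CPM for Ctnnb1. Far below these stood Cav2 with 17.3 CPM per kb, Cav1 with 6.32 and Vim with 0.807. Snai1 and Zeb1 had COL medians of 0.0433 and 0.00842 CPM per kb, and Snai2 had a median of 0. In SI the order of the epithelial genes was different, with 183 CPM per kb for Epcam, 140 for Cdh17, 88 for Cdh1 and 47.8 for Ctnnb1. In SI the median was 0.109 CPM per kb for Cav2 and 0 for Cav1, while Vim held 0.407 CPM per kb. The 4 adhesion genes thus stood at the upper end of the list in both tissues, and the 3 EMT factors at the lower end in COL.

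**Figure D1:**
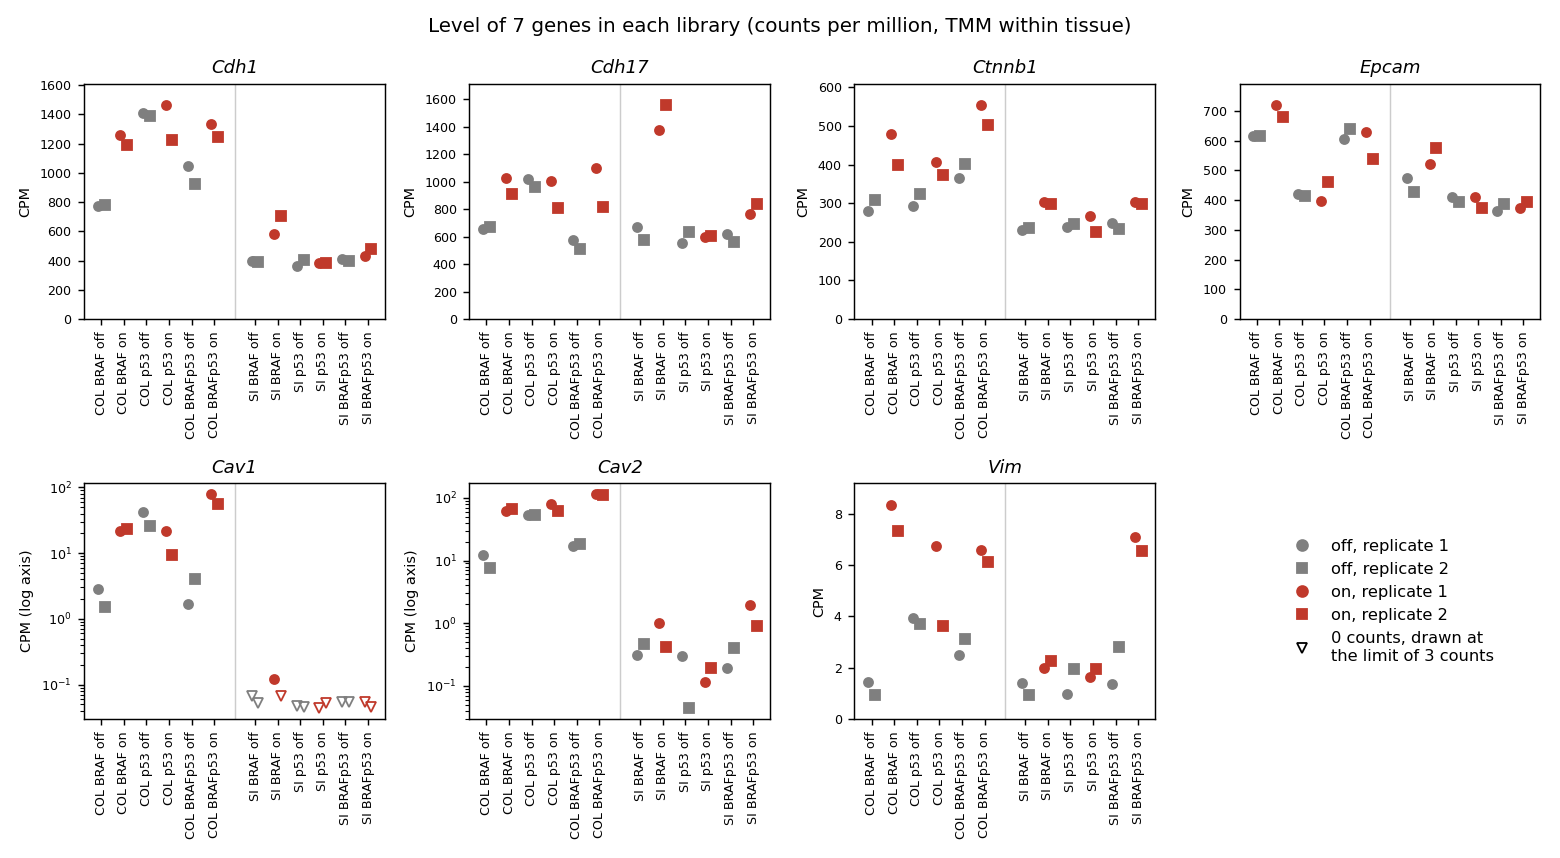
Level of 7 of the 10 genes in each of the 24 libraries, in CPM scaled by TMM within a tissue, with 1 point per library, off in grey and on in red; the axes of Cav1 and Cav2 are logarithmic, and libraries with 0 counts are drawn as open triangles at the limit of 3 counts. Cav1 and Cav2 separate the tissues, with Cav1 between 1.49 and 79 CPM in COL and at 0 in 11 of 12 SI libraries.

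Cav1 had the largest called change of all members upon induction of BRAFV600E in COL, and Cav2 rose beside it. Both are neighbours on chromosome 6 of GRCm38, on the plus strand. Cav2 (ENSMUSG00000000058) lies at 17281185 to 17289115 and Cav1 (ENSMUSG00000007655) at 17306335 to 17341452, with 17219 bases between them. Because both neighbours rose, the 250 bases before the start of each (RefSeq, GRCm38.p6, plus strand) are shown, at chr6:17280935-17281184 for Cav2 and at chr6:17306085-17306334 for Cav1. Capitals mark the AP-1 motif TGANTCA, which is searched on both strands and found with its first base at -92 in Cav2. The window of Cav1 held neither this motif nor the E-box CACCTG that SNAI and ZEB factors bind.

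Cav2: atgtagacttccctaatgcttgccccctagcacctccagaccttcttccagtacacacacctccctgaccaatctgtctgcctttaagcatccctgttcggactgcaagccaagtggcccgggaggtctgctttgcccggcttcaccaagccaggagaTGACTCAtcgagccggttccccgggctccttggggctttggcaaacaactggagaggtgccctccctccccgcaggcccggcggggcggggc
Cav1: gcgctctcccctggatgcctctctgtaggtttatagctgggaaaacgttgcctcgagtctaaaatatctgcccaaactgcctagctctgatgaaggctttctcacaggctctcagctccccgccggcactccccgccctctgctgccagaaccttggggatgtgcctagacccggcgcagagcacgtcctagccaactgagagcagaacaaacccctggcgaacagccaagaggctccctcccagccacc

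TGANTCA is found in 6.75% of 32851 RefSeq promoter windows of this length and CACCTG (with its reverse complement CAGGTG) in 17.2%. Windows were at hand for 6 of the 10 genes, with 8 starts in all, and the 2 motifs overlapped in none of them. CACCTG was present in 3 of these starts, with first bases at -187 and -19 in Epcam, at -126 in Snai1 and at -158 of the second start of Cav1. Windows of Cdh1, Cdh17, Snai2 and Zeb1 were not analysed here. A match describes letters and not binding.

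Cav1 held 186 and 85 counts in the COL BRAF off libraries (2.89 and 1.49 CPM) and 1299 and 1095 in the on libraries (21.7 and 23.3 CPM). In COL BRAFp53 it held 107 and 266 counts off (1.66 and 4.07 CPM) and 5810 and 3296 on (79 and 55.5 CPM). Both on libraries lay above both off libraries in either genotype. The Cav1 increase on the log2 scale was 3.35 in COL BRAF (SE 0.49, edgeR adjusted p = 0.000744) and 4.55 in COL BRAFp53 (SE 0.51, edgeR adjusted p = 0.000168), and it passed in each of 10 alternatives of both comparisons. The second was larger by 1.20 (95% confidence interval -0.23 to 2.63), but this difference did not pass (edgeR adjusted p = 0.347, 0.000764 without a filter on low counts). It ranged from 0.64 to 1.99 over 14 alternatives. The bulk RNA does not tell a change in cell numbers from a change in RNA per cell, here or below.

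The COL p53 culture had high Cav1 without BRAFV600E. Its off libraries held 2852 and 1729 counts (41.8 and 25.7 CPM), and their mean of 33.8 ± 11.4 CPM (SD, n = 2) was 15.4 times that of the BRAF off group and 11.8 times that of the BRAFp53 off group. It was also 1.5 times the mean of the induced BRAF group. After induction of p53R172H the libraries held 1480 and 672 counts (21.8 and 9.51 CPM), both under the off libraries. This change of -1.11 (95% confidence interval -2.06 to -0.16) did not pass over all genes (edgeR adjusted p = 0.503) and passed only without a filter on low counts (adjusted p = 2.84e-07, range over the alternatives up to 1). In the order of COL means, BRAFp53 on (67.3 CPM) was followed by p53 off (33.8), BRAF on (22.5), p53 on (15.7), BRAFp53 off (2.86) and BRAF off (2.19). The ranges overlapped between BRAF on and p53 on and between the lowest pair of groups.

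Cav2 showed the same order of the off cultures, at a higher level per kb. Its means were 10 ± 3.24, 53.6 ± 1.03 and 17.4 ± 0.906 CPM (SD, n = 2) in the BRAF, p53 and BRAFp53 off groups and 64.4 ± 3.11, 71.1 ± 14.4 and 114 ± 1.5 CPM in the on groups. In the BRAF culture the libraries read 12.3 and 7.71 CPM off and 62.2 and 66.6 CPM on, and in the BRAFp53 culture 16.8 and 18.1 CPM off and 115 and 113 CPM on. Cav2 rose by 2.68 in COL BRAF (SE 0.20, edgeR adjusted p = 1.1e-05) and by 2.71 in COL BRAFp53 (SE 0.20, edgeR adjusted p = 2.55e-05). The 2 increases differed by 0.03, with a 95% confidence interval of -0.55 to 0.61. In COL p53 the change of 0.41 did not pass (edgeR adjusted p = 0.597). Per kb of exon, Cav1 stood at 0.0958 to 0.746 of the Cav2 level in the COL libraries. This ratio was 0.228 and 0.187 in BRAF off and 0.338 and 0.339 in BRAF on, and 0.0958 and 0.218 in BRAFp53 off and 0.663 and 0.475 in BRAFp53 on. In the p53 culture it was lower on than off, with 0.746 and 0.472 off and 0.26 and 0.151 on.

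In SI, Cav1 was not detected in most libraries and Cav2 was low. Cav1 had 0 counts in 11 of 12 libraries, which allows up to 3 counts in each. The remaining library, SI BRAF on replicate 1, held 6 counts, and its Xist count stood apart from its culture. The SI p53 and BRAFp53 libraries, which held more Xist, had 0 counts of Cav1. Cav2 held 3 to 109 counts. The highest values were 109 and 60 counts in BRAFp53 on, against 11 and 23 in BRAFp53 off, without overlap. This change of 2.25 did not pass in edgeR (SE 0.80, adjusted p = 0.0899), and it passed without a filter (adjusted p = 0.013) and in DESeq2 (adjusted p = 0.0463). In SI BRAF, Cav2 held 15 and 29 counts off and 51 and 16 on, with overlapping ranges. The change of 0.87 there (edgeR adjusted p = 0.435) was 0.09 without SI BRAF on replicate 1.

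Other caveola genes of a fixed list were read beside them. Of 8 such genes, 7 were tested in COL, of which 5 rose in BRAF (median 1.39 against -0.01 over all genes tested), and 4 rose in BRAFp53 (median 0.83 against -0.04, or 1.16 with the genes at 0 counts in a group included), where 19.9% and 17.7% of all genes were called. Cavin1, which is required for the caveola coat, had 31.2 ± 4.01 CPM off and 77.7 ± 3.34 CPM on in BRAF, and 30.7 ± 2.74 CPM off and 89.5 ± 1.97 CPM on in BRAFp53 (SD, n = 2, edgeR adjusted p = 0.000186 and 8.39e-05). The ATPase gene Ehd2, whose product stabilises caveolae at the membrane, had 2.69 ± 0.224 CPM off and 9.37 ± 0.287 CPM on in BRAF, and 2.82 ± 0.308 CPM off and 16.2 ± 4.94 CPM on in BRAFp53 (edgeR adjusted p = 0.000806 and 0.000137). The F-BAR gene Pacsin3 rose by 1.39 and 1.16 on the log2 scale (edgeR adjusted p = 0.00134 and 0.00453). In COL p53, without BRAFV600E, its change of 1.32 (SE 0.23) was of like size and did not pass (edgeR adjusted p = 0.0571), a value added after it was seen. There 0 of 7 caveola genes passed in edgeR (0.142% of all genes called), with 4 at an unadjusted p under 0.05, 1 called by DESeq2 and 0 by limma-voom. In SI 4 of the 8 were tested, of which 2 rose in BRAF (median 0.94 against -0.06, 31.7% of all genes called) and 1 in BRAFp53 (median -0.04 against -0.03, 11.5% called). There Pacsin2, a membrane-bending protein of the same family, rose from 83.2 ± 5.3 to 190 ± 23.8 CPM in BRAF and from 75.6 ± 8.88 to 111 ± 6.76 CPM in BRAFp53 (edgeR adjusted p = 2.74e-05 and 0.019). Cavin1 was low in SI, with 1.24 ± 0.237 CPM in BRAF off, and rose by 1.31 in BRAF (edgeR adjusted p = 0.00795, 0.0648 without off replicate 1 and 0.09 without on replicate 2). The Pacsin2 call in SI BRAFp53 was lost without off replicate 2 (adjusted p = 0.167) or on replicate 2 (adjusted p = 0.139). In COL, Pacsin2 rose by 0.67 in BRAF and 0.50 in BRAFp53 (edgeR adjusted p = 0.00984 and 0.0429). The former was lost without off replicate 2, on replicate 1 or on replicate 2 (adjusted p = 0.0747, 0.0515 and 0.0523) and the latter without any of its 4 libraries (adjusted p from 0.08 to 0.17) and with the replicate block (adjusted p = 0.0605).

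In COL, Cdh1, Cdh17 and Ctnnb1 rose by less than the caveolins, from higher levels. Cdh1 (ENSMUSG00000000303, chromosome 8, 106603351 to 106670246) stood at 776 ± 2.81 CPM in COL BRAF off and 1225 ± 47.8 CPM on (SD, n = 2), and at 985 ± 83.6 CPM in COL BRAFp53 off and 1289 ± 65.9 CPM on. The single libraries read 774 to 778 CPM off and 1191 to 1258 CPM on in BRAF and 926 to 1044 CPM off and 1243 to 1336 CPM on in BRAFp53, without overlap. Cdh1 rose by 0.66 in COL BRAF (SE 0.10, edgeR adjusted p = 0.000977) and by 0.39 in COL BRAFp53 (SE 0.10, edgeR adjusted p = 0.0209). The BRAFp53 call was lost without off replicate 2 (adjusted p = 0.144) or on replicate 1 (adjusted p = 0.106). The COL p53 culture had the highest Cdh1, 1401 ± 15 CPM off and 1344 ± 169 CPM on, and the p53 on range overlapped the ranges of p53 off, BRAFp53 on and BRAF on, while BRAFp53 off and BRAF off stood apart below. The 5 epithelial markers also summed to more in COL on libraries (18326 to 29710 CPM) than in COL off libraries (9303 to 17794 CPM), and the part of this in the adhesion genes was not tested.

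SI libraries held less Cdh1, 364 to 410 CPM off. It reached 643 ± 84.1 CPM in SI BRAF on (583 and 702 CPM) from 393 ± 8.37 CPM, a rise of 0.71 (SE 0.11, edgeR adjusted p = 0.00028), or 0.86 without SI BRAF on replicate 1 (adjusted p = 8.05e-05). In SI BRAFp53 the libraries read 395 and 410 CPM off and 430 and 476 CPM on, and the change of 0.17 did not pass (95% confidence interval -0.06 to 0.40, edgeR adjusted p = 0.38). The SI BRAFp53 response was below the SI BRAF response by -0.54 (95% confidence interval -0.87 to -0.21, edgeR adjusted p = 0.0476). This call lies near the threshold. It held without SI BRAF on replicate 1 (-0.67, adjusted p = 0.0114) and was lost without any other of the 8 libraries (adjusted p from 0.0683 to 0.187) and with the replicate block (adjusted p = 0.079).

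Cdh17 (ENSMUSG00000028217, chromosome 4, 11758147 to 11817895) showed the largest change of the adhesion members, in SI BRAF. Its libraries read 573 and 671 CPM off and 1379 and 1558 CPM on, and the means were 622 ± 69.5 and 1468 ± 127 CPM. This rise of 1.24 (SE 0.11, edgeR adjusted p = 4.45e-06) was 1.34 without SI BRAF on replicate 1 (adjusted p = 4.94e-06). In SI BRAFp53, Cdh17 rose from 592 ± 41.6 to 804 ± 51.9 CPM (0.44, SE 0.11, edgeR adjusted p = 0.0227). Both on libraries lay above both off libraries, yet the call was lost without off replicate 1 (adjusted p = 0.0523), off replicate 2 (adjusted p = 0.162) or on replicate 2 (adjusted p = 0.177). The SI BRAFp53 response was smaller than the SI BRAF response by -0.80 (95% confidence interval -1.14 to -0.45, edgeR adjusted p = 0.00842), and this passed in each of 14 alternative fits, though it is under a fold threshold of 1 on the log2 scale (adjusted p at most 0.0479, and 0.00525 without SI BRAF on replicate 1).

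In COL, Cdh17 had 663 ± 7.27 CPM off and 966 ± 84.4 CPM on in BRAF (0.54, SE 0.14, edgeR adjusted p = 0.0197) and 543 ± 47.5 CPM off and 958 ± 200 CPM on in BRAFp53 (0.82, SE 0.14, edgeR adjusted p = 0.00262). The BRAF call was lost without off replicate 1, off replicate 2 or on replicate 1 (adjusted p = 0.098, 0.0853 and 0.146). In the order of COL means p53 off (988 CPM), BRAF on, BRAFp53 on and p53 on (907 CPM) overlapped, and BRAF off and BRAFp53 off stood apart below them. The responses of BRAFp53 and BRAF differed by 0.27 in COL (95% confidence interval -0.17 to 0.72, edgeR adjusted p = 0.502).

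The balance of the 2 cadherins separated the tissues. Per kb of exon, the ratio of Cdh17 to Cdh1 was 0.563 to 0.878 in the 12 COL libraries and 1.46 to 2.42 in the 12 SI libraries. It was highest in SI BRAF on (2.42 and 2.27, against 1.72 and 1.51 off) and lowest in COL BRAFp53 off (0.565 and 0.563, against 0.842 and 0.672 on).

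**Figure D2:**
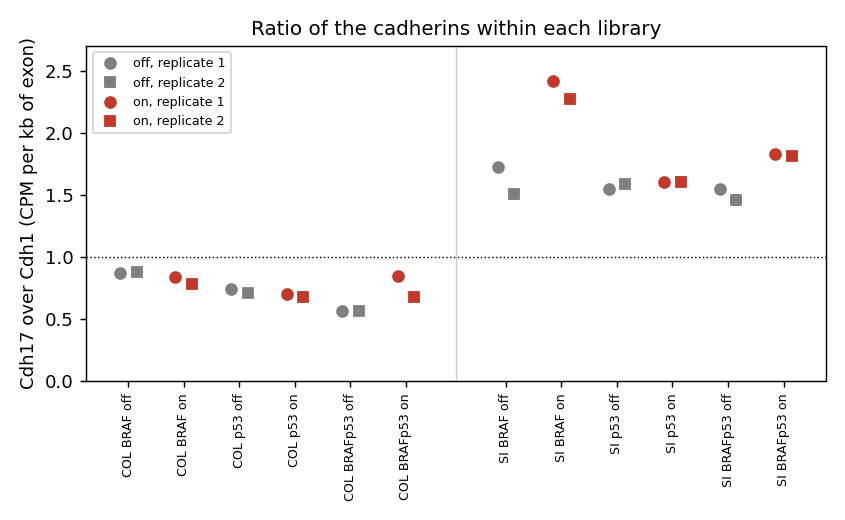
Ratio of the Cdh17 level to the Cdh1 level within each library, both in CPM per kb of merged exons, with 1 point per library (off in grey, on in red) and a dotted line at a ratio of 1. All 12 COL libraries lie under 1, at 0.563 to 0.878, and all 12 SI libraries above it, at 1.46 to 2.42.

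Ctnnb1 (ENSMUSG00000006932, chromosome 9, 120929216 to 120960507) shares 759 exonic bases with Ulk4 on the opposite strand, and the use of strand in the counting was not stated, so reads there cannot be told apart. It read 279 and 309 CPM in COL BRAF off and 400 and 480 CPM on, and 366 and 402 CPM in COL BRAFp53 off and 503 and 554 CPM on, with no overlap in either culture. The increases were 0.58 (SE 0.12, edgeR adjusted p = 0.00428, 0.0592 without on replicate 1) and 0.46 (SE 0.12, edgeR adjusted p = 0.0177). The latter was lost without off replicate 1 (adjusted p = 0.103), without on replicate 1 (adjusted p = 0.0961) and with the replicate block (adjusted p = 0.051). In SI BRAF, Ctnnb1 rose from 233 ± 3.6 to 301 ± 1.63 CPM (0.37, SE 0.10, edgeR adjusted p = 0.0137). It passed without SI BRAF on replicate 1 (0.38, adjusted p = 0.032) and not without the other 3 libraries in turn (adjusted p = 0.0763, 0.0605 and 0.0528). In SI BRAFp53 it read 241 ± 11.4 CPM off and 301 ± 4.91 CPM on, and the change of 0.32 did not pass in edgeR (adjusted p = 0.0605) and passed with at least 10 counts required in every library (adjusted p = 0.0373), in DESeq2 (adjusted p = 0.013) and in limma-voom (adjusted p = 0.0393).

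Epcam (ENSMUSG00000045394, chromosome 17, 87635979 to 87651129) moved least among the adhesion genes in the BRAF and BRAFp53 cultures. It read 615 and 616 CPM in COL BRAF off and 679 and 720 CPM on, and the change of 0.18 did not pass (95% confidence interval -0.04 to 0.41, edgeR adjusted p = 0.251). In COL BRAFp53 the off range of 606 to 640 CPM overlapped the on range of 538 to 628 CPM (-0.10, 95% confidence interval -0.32 to 0.13, edgeR adjusted p = 0.571). In SI BRAF it rose from 450 ± 32.2 to 548 ± 37.1 CPM (0.28, SE 0.10, edgeR adjusted p = 0.0464). This call held without SI BRAF on replicate 1 (0.37, adjusted p = 0.0283) and was lost without off replicate 1 (adjusted p = 0.0574), off replicate 2 (adjusted p = 0.273) or on replicate 2 (adjusted p = 0.263), without a filter on low counts (adjusted p = 0.1) and with the replicate block (adjusted p = 0.0647). In SI BRAFp53 the change was 0.03 (95% confidence interval -0.19 to 0.24, edgeR adjusted p = 0.901).

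Other genes of cadherins and adherens junctions were counted from a list of 19, of which 18 were tested in COL and 13 in SI. In COL 9 rose in BRAF and 4 in BRAFp53, and in SI 6 rose in BRAF and 3 in BRAFp53, where 19.9%, 17.7%, 31.7% and 11.5% of all genes were called in these comparisons. Their medians were 0.45, 0.60, 0.44 and 0.11 in that order, against -0.01, -0.04, -0.06 and -0.03 over all genes tested (0.52 in COL BRAFp53 with a gene at 0 counts in a group included). The protocadherin Cdhr2, which links brush border microvilli, had 233 ± 11 CPM off and 1117 ± 185 CPM on in SI BRAF, and 317 ± 25.6 CPM off and 887 ± 155 CPM on in COL BRAF (SD, n = 2, edgeR adjusted p = 2e-07 and 0.00226). Its partner Cdhr5 rose from 285 ± 8.08 to 1165 ± 245 CPM in SI BRAF and from 224 ± 38.2 to 475 ± 47.5 CPM in COL BRAF (edgeR adjusted p = 4.4e-07 and 0.00332). Cdh13, a cadherin without a cytoplasmic tail, had 4.57 ± 0.38 CPM off and 46.7 ± 3.53 CPM on in COL BRAF, and 64.5 ± 0.481 CPM off and 171 ± 24.2 CPM on in COL BRAFp53 (edgeR adjusted p = 1.41e-06 and 0.00011). Nectin2, an immunoglobulin-like junction protein, rose by 0.89 in SI BRAF, 0.75 in SI BRAFp53, 0.94 in COL BRAF and 0.79 in COL BRAFp53 (edgeR adjusted p = 0.000138, 0.00152, 0.0017 and 0.0054). In SI BRAFp53, Cdhr2 and Cdhr5 rose by 0.68 and 0.65 (edgeR adjusted p = 0.00566 and 0.00772). Without off replicate 2 they were 0.57 and 0.55 (adjusted p = 0.0668 and 0.0841), and Cdhr5 was also lost without on replicate 2 (adjusted p = 0.0606). In COL BRAFp53 Cdhr2 rose by 1.12 (edgeR adjusted p = 0.012), and this was lost without off replicate 2 (adjusted p = 0.0924) or on replicate 1 (adjusted p = 0.107).

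Desmosomes, the spot junctions anchored to keratin, had 7 genes in their list, all tested. In COL 5 rose in BRAF and 4 in BRAFp53, where 19.9% and 17.7% of all genes were called (medians 0.70 and 0.54 against -0.01 and -0.04 over all genes). Dsg2, a desmosomal cadherin, had 132 ± 5.67 CPM off and 282 ± 35.7 CPM on in COL BRAF, and the tetraspan gene Perp had 92.4 ± 0.973 CPM off and 175 ± 6.42 CPM on there (edgeR adjusted p = 0.000537 and 0.00019). The plakophilin Pkp3 had 80.4 ± 5.15 CPM off and 146 ± 11.8 CPM on in COL BRAF, and 75.8 ± 12.3 CPM off and 152 ± 9.86 CPM on in COL BRAFp53 (edgeR adjusted p = 0.00445 and 0.0022). In COL BRAFp53 Perp rose by 0.80 (edgeR adjusted p = 0.000536) and Dsg2 by 0.54 (edgeR adjusted p = 0.0285), the latter lost without off replicate 1, off replicate 2 or on replicate 1 (adjusted p = 0.12, 0.0803 and 0.223) and with the replicate block (adjusted p = 0.0519). In SI 4 rose and 1 fell in BRAF, and 3 rose and 1 fell in BRAFp53, where 31.7% and 11.5% of all genes were called (medians 0.63 and 0.14 against -0.06 and -0.03). Dsg2, Perp and Pkp3 rose by 0.78, 0.63 and 0.77 in SI BRAF (edgeR adjusted p = 0.000191, 0.00825 and 0.00133) and by 0.49, 0.59 and 0.58 in SI BRAFp53 (edgeR adjusted p = 0.0135, 0.0274 and 0.0197). The Perp call in SI BRAF was lost without off replicate 2 or on replicate 2 (adjusted p = 0.0851 and 0.0575). In SI BRAFp53 the Dsg2 call was lost without any of the 4 libraries (adjusted p from 0.0532 to 0.108), that of Perp without any but on replicate 1 (adjusted p from 0.0611 to 0.211) and with the replicate block (adjusted p = 0.0662), and that of Pkp3 without off replicate 2 or on replicate 2 (adjusted p = 0.174 and 0.157). The gene that fell was the plakophilin Pkp1, from 25.8 ± 4.39 to 12.7 ± 3.55 CPM in BRAF and from 20.1 ± 0.148 to 11.1 ± 0.103 CPM in BRAFp53 (edgeR adjusted p = 0.00131 and 0.011). The latter was lost without any of its 4 libraries (adjusted p from 0.0542 to 0.0823).

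Vim (ENSMUSG00000026728, chromosome 2, 13573927 to 13582826) stood between 0.927 and 8.36 CPM in all libraries. In COL BRAF it held 92 and 53 counts off (1.43 and 0.927 CPM) and 500 and 344 on (8.36 and 7.32 CPM). In COL BRAFp53 it held 162 and 203 counts off (2.51 and 3.1 CPM) and 484 and 363 on (6.58 and 6.12 CPM). Both on libraries lay above both off libraries in each culture, and the on levels of the cultures were closer than their off levels. Vim rose by 2.73 in COL BRAF (SE 0.33, edgeR adjusted p = 0.000237) and passed in each of 10 alternatives. In COL BRAFp53 it rose by 1.18 (SE 0.31, edgeR adjusted p = 0.0229), a call that was lost without any of the 4 libraries (adjusted p from 0.0549 to 0.113). The BRAFp53 response was smaller by -1.55 (95% confidence interval -2.53 to -0.58), which did not pass in edgeR (adjusted p = 0.101) and passed in DESeq2 (adjusted p = 0.0222) and without a filter on low counts (adjusted p = 0.032). The off level of the COL BRAFp53 culture was 2.38 times, and that of the COL p53 culture 3.25 times, the off level of the COL BRAF culture. In COL p53 the libraries held 268 and 250 counts off and 458 and 256 on, a change of 0.44 that did not pass (edgeR adjusted p = 0.8).

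In SI, Vim passed in BRAFp53 and not in BRAF. SI BRAFp53 held 76 and 157 counts off (1.34 and 2.79 CPM) and 391 and 432 on (7.1 and 6.57 CPM), and rose by 1.72 (SE 0.38, edgeR adjusted p = 0.0104, 0.103 without off replicate 1). SI BRAF held 66 and 58 counts off and 99 and 87 on, and the change of 0.86 did not pass (95% confidence interval 0.00 to 1.73, edgeR adjusted p = 0.119), and was 0.97 without SI BRAF on replicate 1 (adjusted p = 0.15). The difference between these 2 SI responses was 0.86 and did not pass either (95% confidence interval -0.32 to 2.04, edgeR adjusted p = 0.384). In SI p53 the off range of 66 to 131 counts overlapped the on range of 111 to 113.

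Vim is also a gene of fibroblasts and leukocytes, and markers of these and other cells were read beside it. The sum of the 5 immune markers was 3.82 to 7.49 CPM in COL off and 7.47 to 13.8 CPM in COL on libraries, and most of it was Cd68 (176 to 399 counts off, 375 to 969 on). The pan-leukocyte gene Ptprc held 17 to 63 counts in COL off and 17 to 111 in COL on libraries, with 17 in both COL BRAF on libraries and 21 in both COL BRAFp53 on libraries. The part of immune cells in the COL rise of Vim was not tested. In SI BRAFp53 the same sum was 1.4 and 1.3 CPM off and 0.654 and 1.28 CPM on, no higher where Vim rose. The 3 smooth muscle markers summed to 0.311 and 0.367 CPM off and 1.66 and 0.596 CPM on in COL BRAF, and to 0.186 and 0.122 CPM off and 0.34 and 0.438 CPM on in COL BRAFp53, higher in the on libraries as Vim was, and their part in its rise was not tested. Fibroblast markers summed to 0.759 to 2.79 CPM in COL off and 0.502 to 2.09 CPM in COL on libraries, with overlapping ranges. Endothelial markers summed to 0.0153 to 1.59 CPM in COL off and 0.17 to 1.41 CPM in COL on libraries, also with overlap.

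**Figure D3:**
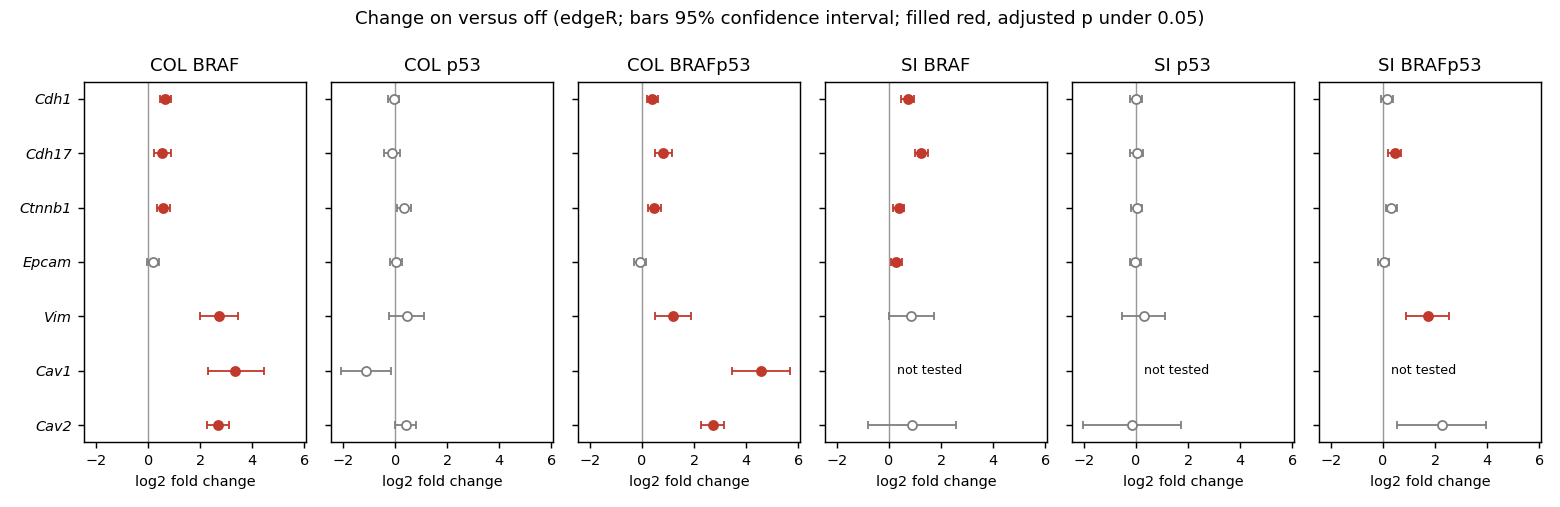
Log2 fold change on versus off of 7 genes in the 6 cultures from edgeR, with 95% confidence intervals; filled red points passed an adjusted p of 0.05 over all genes and open grey points did not, and Cav1 was too low to be tested in SI. In COL the caveolins and Vim show the largest increases (3.35 and 4.55 for Cav1), while among the plotted genes that passed in SI, Cdh17 leads in BRAF (1.24) and Vim in BRAFp53 (1.72; Cav2, at 2.25, did not pass).

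Snai1, Snai2 and Zeb1, the factors that drive EMT, had low counts, at most 39 in any library. Snai1 (ENSMUSG00000042821, chromosome 2, 167538195 to 167542814) held 0 to 32 counts in COL and 0 to 11 in SI. The highest values were 32 counts in COL BRAF on replicate 2 and 21 in COL BRAFp53 on replicate 2, while the other library of each pair held 0 and 2. All 6 SI off libraries had 0 counts of Snai1 and the SI on libraries 0, 3, 11, 1, 4 and 7. Zeb1 (ENSMUSG00000024238) held 0 to 14 counts in COL, with its highest pair in COL p53 on (11 and 14), and at most 3 counts in every SI library. It shares 198 exonic bases with Gm10125 on the opposite strand. With the filter on low counts both were tested on versus off in COL alone and did not pass. Without the filter, Snai1 passed in COL BRAFp53 (0 and 0 counts off, 2 and 21 on, edgeR adjusted p = 0.0155).

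Snai2 (ENSMUSG00000022676, chromosome 16, 14705852 to 14709385) was the single member called lower on versus off by edgeR with the filter on low counts. In SI BRAFp53 it held 24 and 26 counts off and 0 and 0 on, at least 8.86-fold lower with 3 counts per library as the limit (edgeR adjusted p = 0.0148, and 0.0715 and 0.106 without either on library). SI p53 libraries held 3 and 26 counts off and 28 and 39 on. SI BRAF libraries held at most 1 count, and 10 of the 12 COL libraries had 0, the others 1 and 7. Counts of Snai2 therefore lay above 3 in 2 of the 3 SI cultures and in 1 COL library.

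**Figure D4:**
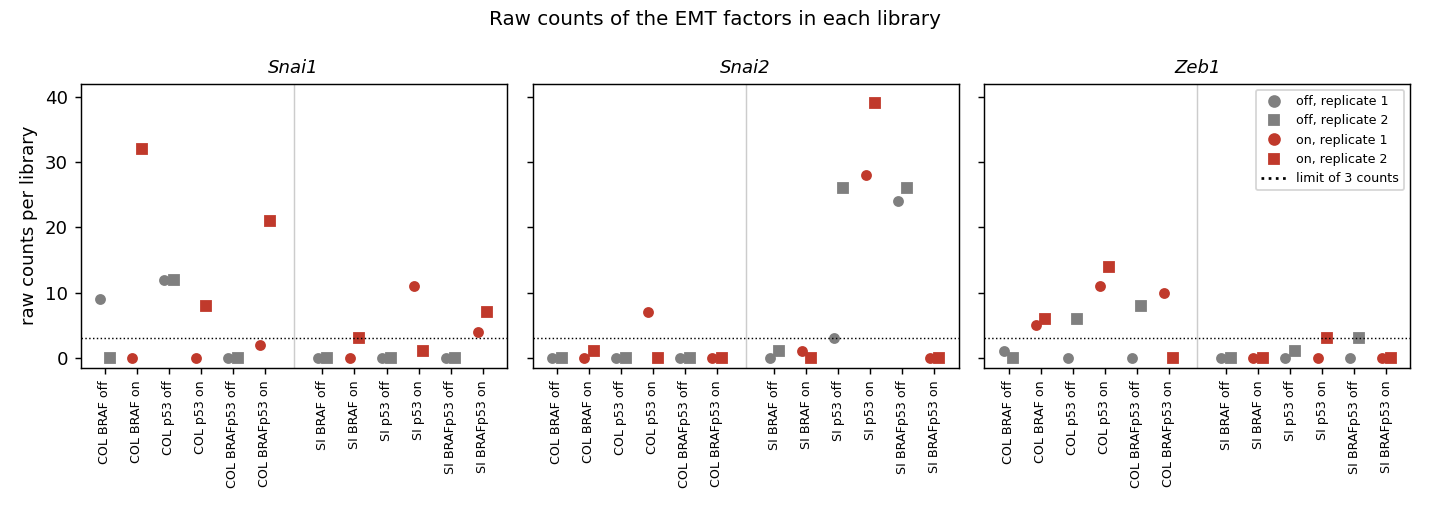
Raw counts of Snai1, Snai2 and Zeb1 in each of the 24 libraries, with 1 point per library (off in grey, on in red) and a dotted line at 3 counts. No library exceeds 39 counts of any of the 3 genes, and the Snai2 counts of SI BRAFp53 drop from 24 and 26 off to 0 on.

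Of 8 other EMT factors, 4 were tested in each tissue. Their medians were 0.04 in COL BRAF, -0.51 in COL BRAFp53, -0.46 in SI BRAF and -0.12 in SI BRAFp53. Over all genes tested the medians were -0.01, -0.04, -0.06 and -0.03 in that order. In COL 1 fell in BRAF and in BRAFp53, where 19.9% and 17.7% of all genes were called, namely Tcf4, a basic helix-loop-helix factor, from 28 ± 1.67 to 17.5 ± 2.06 CPM and from 43.3 ± 10.6 to 27 ± 0.673 CPM (SD, n = 2, edgeR adjusted p = 0.0128 and 0.0139). These calls were lost without off replicate 2 or on replicate 2 in BRAF (adjusted p = 0.0783 and 0.104) and without off replicate 1, on replicate 1 or on replicate 2 in BRAFp53 (adjusted p = 0.126, 0.0975 and 0.0553). In SI BRAF 1 rose and 2 fell, where 31.7% of all genes were called, and in SI BRAFp53 0 of 4 passed in edgeR (1 at an unadjusted p under 0.05, 1 called by DESeq2 and 0 by limma-voom, 11.5% of all genes called). Prrx1, a homeobox gene, rose from 5.35 ± 0.873 to 9.81 ± 0.616 CPM, Tcf4 fell from 12.2 ± 0.924 to 5.35 ± 2.01 CPM and Tcf3 fell from 46.8 ± 10 to 24.1 ± 1.45 CPM (edgeR adjusted p = 0.00273, 0.00121 and 0.00024).

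Among 10 factors of the epithelial state, all tested, 2 rose and 1 fell in COL BRAF, 6 rose in COL BRAFp53, 2 rose and 2 fell in SI BRAF and 1 rose in SI BRAFp53, where 19.9%, 17.7%, 31.7% and 11.5% of all genes were called. Their medians were 0.38, 0.63, -0.24 and -0.04 in that order, against -0.01, -0.04, -0.06 and -0.03 over all genes tested. Elf3, an ETS factor, had 1330 ± 101 CPM off and 1041 ± 22 CPM on in COL BRAF (edgeR adjusted p = 0.0445, lost without any of the 4 libraries) and rose in COL BRAFp53 from 813 ± 49.5 to 1183 ± 89.2 CPM (edgeR adjusted p = 0.00638, and 0.0522 without off replicate 2, a change outside the naming rule and added after it was seen). The grainyhead factor Grhl2 had 19.6 ± 3.18 CPM off and 13.3 ± 2.31 CPM on in SI BRAF (edgeR adjusted p = 0.0415). This call was lost without off replicate 2 or on replicate 2. It was also lost with RLE factors (edgeR adjusted p = 0.0541) and with the replicate block (edgeR adjusted p = 0.0793). Grhl3 of the same family had 12.5 ± 0.727 CPM off and 39.3 ± 9.53 CPM on in COL BRAF, and 11.6 ± 2.93 CPM off and 45.9 ± 12.7 CPM on in COL BRAFp53 (SD, n = 2, edgeR adjusted p = 0.00139 and 0.000588). Klf4, a factor of differentiated epithelium, rose from 25.6 ± 1.5 to 85.9 ± 19.7 CPM in SI BRAF and from 13.3 ± 0.416 to 47.4 ± 5.65 CPM in SI BRAFp53 (edgeR adjusted p = 4.29e-06 and 1.05e-05). It also rose by 0.90 in COL BRAF (edgeR adjusted p = 0.00951), which was lost without off replicate 1 (adjusted p = 0.0906) or on replicate 2 (adjusted p = 0.0721). The splicing factor gene Esrp2 rose by 0.88 in COL BRAFp53 (edgeR adjusted p = 0.00426) and fell by 0.37 in SI BRAF (edgeR adjusted p = 0.0184). The fall was lost without off replicate 1, off replicate 2 or on replicate 2 (adjusted p = 0.0955, 0.0585 and 0.12) and without the filter on low counts (adjusted p = 0.0571).

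Mesenchymal genes other than Vim numbered 19, of which 14 were tested in COL and 7 in SI. In COL 4 rose in BRAF and 1 in BRAFp53, and in SI 3 rose in BRAF and 3 rose and 1 fell in BRAFp53, where 19.9%, 17.7%, 31.7% and 11.5% of all genes were called. Their medians were 0.54, 0.18, 0.63 and 0.73 in that order, against -0.01, -0.04, -0.06 and -0.03 over all genes tested. The gene that fell, named after its values were seen, was the matrix gene Tgfbi, with 9.6 ± 2.11 CPM off and 5.34 ± 0.587 CPM on (edgeR adjusted p = 0.022). This call was lost without off replicate 1, on replicate 1 or on replicate 2 (adjusted p = 0.201, 0.136 and 0.0733) and with the replicate block (adjusted p = 0.0614). In SI BRAF the same gene rose, from 8.2 ± 1.55 to 24.1 ± 4.77 CPM (edgeR adjusted p = 0.000121). In SI BRAF the 7 fibroblast markers summed to 1.39 and 1.65 CPM off and 2.04 and 3.33 CPM on. The 4 endothelial markers summed to 0.253 and 0.0648 CPM off and 1.54 and 1.01 CPM on, and neither sum overlapped. Markers of other cells were lower on than off there. Smooth muscle markers summed to 0.148 and 0.389 CPM off and 0.02 and 0.0774 CPM on. Immune markers summed to 1.2 and 0.859 CPM off and 0.761 and 0.774 CPM on, and glial markers to 0.864 and 0.842 CPM off and 0.421 and 0.645 CPM on. Of the fibroblast markers Dcn and Lum were at 0 in every SI library, and of the endothelial markers Cdh5 was at 0 in the SI on libraries. The part of these cells in the rises was not tested. In SI BRAFp53 the fibroblast sums were 0.725 and 1.25 CPM off and 0.563 and 1.1 CPM on, and the endothelial sums 0.46 and 0.285 CPM off and 0.381 and 0.624 CPM on, with overlap in both. Lgals1, a galectin, had 5.38 ± 1.03 CPM off and 17.7 ± 0.78 CPM on in COL BRAF, and 3.42 ± 0.0141 CPM off and 12.3 ± 2.98 CPM on in COL BRAFp53 (SD, n = 2, edgeR adjusted p = 0.00245 and 0.00201). In SI BRAFp53 it rose by 1.48 (edgeR adjusted p = 0.0253), which was lost without off replicate 1, off replicate 2 or on replicate 1 (adjusted p = 0.183, 0.0566 and 0.174) and with the replicate block (adjusted p = 0.0611). Tagln, an actin-binding gene, held 105 and 58 counts off and 263 and 198 on in COL BRAF (edgeR adjusted p = 0.00129). Itga5, the fibronectin receptor subunit, held 13 and 29 counts off and 134 and 68 on in SI BRAF, and 65 and 67 counts off and 316 and 344 on in SI BRAFp53 (edgeR adjusted p = 0.00029 and 0.00128). Fibronectin (Fn1) held 595 and 726 counts off and 2566 and 905 on in COL BRAF, with an edgeR adjusted p of 0.0391 that rose to 0.199, 0.0888 and 0.359 without off replicate 1, off replicate 2 and on replicate 1 and to 0.0971 in limma-voom. In COL BRAFp53 it read 40.6 ± 15.1 CPM off and 21.4 ± 10.5 CPM on, a change of -0.92 that did not pass (edgeR adjusted p = 0.188).

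In the p53 cultures 0 of the 59 genes of these 6 lists tested in COL and 0 of the 45 tested in SI passed in edgeR, where 0.142% and 0% of all genes were called. In COL p53, 14 had an unadjusted p under 0.05, 4 were called by DESeq2 and 0 by limma-voom, and in SI p53 these counts were 0, 0 and 0.

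Counting the members against all genes gave the following. In COL BRAF 6 of the 9 members that passed the filter rose, where 19.9% of all genes tested were called, and in COL BRAFp53 6 of 9 rose, where 17.7% were called. In SI BRAF 4 of 7 rose (31.7% of all genes called), and in SI BRAFp53 2 rose and 1 fell of 7 (11.5%). The filter removed Snai2 in COL and Snai1, Zeb1 and Cav1 in SI. In COL BRAFp53 the number called fell to 3 without on replicate 1. In COL p53 none of 9 passed in edgeR (0.142% of all genes called), with 3 members (Ctnnb1, Cav1 and Cav2) at an unadjusted p under 0.05 and 0 called by DESeq2 and by limma-voom. In SI p53 none of 7 passed (0% of all genes called in edgeR, with 873 at an unadjusted p under 0.05, 55 in DESeq2 and 1 in limma-voom), with 0 members at an unadjusted p under 0.05.

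The differences between responses touched few members. For BRAFp53 minus BRAF none of 9 passed in COL in edgeR (0.907% of all genes called), with 1 member, Vim, at an unadjusted p under 0.05, 1 called by DESeq2 and 0 by limma-voom, and 2 of 7 passed in SI, Cdh1 and Cdh17 (8.2%). For COL minus SI, 2 of 9 passed in BRAF (10.7%). These were Cdh17, with a COL response smaller by -0.74 (95% confidence interval -1.15 to -0.33, edgeR adjusted p = 0.0192), and Vim, with a COL response larger by 1.82 (95% confidence interval 0.68 to 2.96, edgeR adjusted p = 0.037). The Cdh17 difference was lost without either COL BRAF off library, COL BRAF on replicate 2, SI BRAF off replicate 2 or SI BRAF on replicate 2 (adjusted p from 0.0508 to 0.108), and held without SI BRAF on replicate 1 (adjusted p = 0.0175). The Vim difference was lost in limma-voom (adjusted p = 0.083) and without 6 of the 8 libraries, SI BRAF on replicate 1 among them (1.72, adjusted p = 0.105). The Cav2 responses differed by 1.75 without passing (edgeR adjusted p = 0.092), and by 2.58 without SI BRAF on replicate 1. Without a filter on low counts the Cav2 difference of 1.77 passed (edgeR adjusted p = 5.95e-05). In p53 (0.117% of all genes called) and in BRAFp53 (3.52%), none of 9 members passed for COL minus SI in edgeR, DESeq2 or limma-voom, with 1 (Ctnnb1) and 0 at an unadjusted p under 0.05. These comparisons share their cultures with those above and are not independent of them.

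Before induction, 3 of 7 members tested differed between tissues over 3 cultures each, where 29.6% of all genes were called. Cdh1 was higher in COL, with culture means of 776, 1401 and 985 CPM (BRAF, p53 and BRAFp53) against 393, 385 and 402 CPM in SI, without overlap (1.17, SE 0.23, edgeR adjusted p = 0.011, 0.0532 without the SI p53 culture). Cav2 was higher in COL, with 10, 53.6 and 17.4 CPM against 0.393, 0.17 and 0.302 CPM (6.30, SE 0.78, edgeR adjusted p = 0.00285). Cav1 was at 0 in the 3 SI cultures and at 2.19, 33.8 and 2.86 CPM in COL, a mean of 12.9 ± 18 CPM (SD, n = 3) that the p53 culture carried and that was at least 253-fold higher with 3 counts per library as the limit (edgeR adjusted p = 0.0157). Snai2, removed by the filter, was at 0 in the 3 COL cultures and at 0.0081, 0.214 and 0.444 CPM in SI (adjusted p = 0.0241 without the filter). Cdh17 did not differ beyond its spread, with 663, 988 and 543 CPM in COL against 622, 592 and 592 CPM in SI (0.04, 95% confidence interval -0.51 to 0.58, edgeR adjusted p = 0.925). Ctnnb1 had 294, 308 and 384 CPM in COL against 233, 243 and 241 CPM in SI, without overlap, and the difference of 0.21 did not pass (edgeR adjusted p = 0.328) but did with the off libraries kept apart (0.17, adjusted p = 0.0255). Epcam and Vim overlapped between tissues and did not pass (edgeR adjusted p = 0.506 and 0.463, and 0.0646 and 0.195 with the off libraries kept apart). The spread between COL cultures was wide, 318 CPM for Cdh1 and 23.3 CPM for Cav2 (SD, n = 3), against 8.61 and 0.112 CPM in SI.

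Genes with the pattern most like 3 of the members were read from Pearson's r over the 12 libraries of a tissue, on log2(CPM + 1). The libraries share cultures and induction, so r is a description. The genes most like Cav1 in COL were Atp2a3 (r = 0.970), Kctd11 (0.966), Iqgap1 (0.963), Gcnt3 (0.953) and Ssu72 (0.952), while r with Cav2 was 0.932 and with Epcam -0.291. Those most like Cdh1 in COL were Abcb1a (0.988), Pls1 (0.979), Ildr1 (0.977), Cdhr2 (0.973) and Myo1e (0.969). For Cdh17 in COL they were Actg1 (0.978), Abcc3 (0.971), Elovl1 (0.970), Vil1 (0.966) and Por (0.964). In SI, Heph, the ferroxidase of enterocytes, was among the most like both Cdh1 (0.987) and Cdh17 (0.995), and r between Cdh1 and Cdh17 was 0.982 in SI and 0.801 in COL.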

How the data were processed

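Raw gene counts deposited by the authors were used for 24 paired-end libraries (HiSeq4000). Per the labels, the submitters' processing notes name STAR 2.5.2b, Trimmomatic 0.36 and the builds mm10 and mm9 without a role. Annotation release and use of strand are not given in the sources used here. Of 45706 identifiers, 45143 matched GENCODE M21 (GRCm38), which gave names, coordinates and exon lengths. No normalized values were taken from the authors.

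Counts were filtered (filterByExpr), scaled by TMM and tested by the edgeR 4.0.16 quasi-likelihood test in R 4.3.3, with 12 libraries per tissue in 1 fit (18972 genes in COL, 16856 in SI) and Benjamini-Hochberg adjustment over all genes, and 0.05 as threshold. COL minus SI used 1 fit of 24 libraries (19673 genes). The off comparison summed the duplicates of each culture (17789 genes). Fits were tested on simulated data. Alternatives were DESeq2 1.42.0, limma-voom (limma 3.58.1), RLE factors, other filters, a fold threshold, a replicate block and leaving out each library or culture.

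Named were the 10 genes, up to 3 called genes per list and comparison with the largest change and average log2 CPM of at least 0, and the 5 genes most like Cav1, Cdh1 and Cdh17 with average log2 CPM of at least 3. For list genes so named, calls in other comparisons were added after their values were seen. Members and lists were chosen with earlier results of these data known. 1 item of the marker lists is not reported here.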

Additional observations from a re-analysis of the deposited data

Results flagged for a closer look

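Differences between responses that passed the test of the difference itself were the following. Between genotypes in SI, the Cdh1 response of BRAFp53 was below that of BRAF by -0.54 on the log2 scale (edgeR adjusted p = 0.0476), a call kept in 6 of 14 alternative fits. Cdh17 differed in the same direction by -0.80 (edgeR adjusted p = 0.00842), a call kept in each of 14. Between tissues in BRAF, the Cdh17 response was lower in COL by -0.74 (edgeR adjusted p = 0.0192), and the Vim response was higher in COL by 1.82 (edgeR adjusted p = 0.037). The Cdh17 call was kept in 9 of 14 alternative fits and the Vim call in 7 of 14. Genotype and donor culture, and tissue, dose and day, cannot be told apart in these values. The SI BRAF and SI BRAFp53 cultures also differed in the sex-linked markers Xist and Ddx3y.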

How the results depend on the processing

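Of 51 results on members, 24 kept direction and side of the threshold in every alternative fit (the fold threshold was applied to counts of calls alone). Over 574 alternatives, 503 kept both, 48 lost the call, 12 gained it and 11 turned the sign. Of 578 alternatives for list genes 523 kept the call and 55 lost it. The causes were not tested.

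Requiring an absolute log2 fold change of 1 gave 3 members called in COL BRAF, 3 in COL BRAFp53, 1 in SI BRAF, 0 in SI BRAFp53 minus BRAF and 1 in BRAF COL minus SI (genes: 1512, 1332, 2011, 715 and 1139, with 97 in COL BRAFp53 minus BRAF, 830 in SI BRAFp53, 435 in BRAFp53 COL minus SI and 3470 off). Without a filter there were 1 member in COL p53 and 2 in COL BRAFp53 minus BRAF (genes: 569 and 1312, with 155 in SI p53, 488 in p53 and 1548 in BRAFp53 COL minus SI). DESeq2 called 1 member in COL BRAFp53 minus BRAF and 5 in SI BRAFp53 (genes: 1366 in the former, 324 in COL p53, 55 in SI p53, 2089 in SI BRAFp53 minus BRAF, 155 in p53 and 1554 in BRAFp53 COL minus SI). With at least 10 counts in every library, 391 genes passed in COL BRAFp53 minus BRAF and 39 in p53 COL minus SI. In limma-voom 1 member passed in BRAF COL minus SI, and 1 gene in SI p53.

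Replicate numbers did not pair the libraries (r from -0.0392 to 0.0573 in 6 cultures). With the replicate block 1 member passed in SI BRAFp53 minus BRAF, 15 genes in COL p53 and 17 in COL BRAFp53 minus BRAF, and the Cav2 difference there was 0.00.

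Leaving out 1 library gave 4 to 6 members in COL BRAF, 3 to 5 in COL BRAFp53, 2 to 4 in SI BRAF, 1 to 2 in SI BRAFp53, 1 to 2 in SI BRAFp53 minus BRAF and 0 to 2 in BRAF COL minus SI. The genes called were 1961 to 2489 in COL BRAF, 0 to 56 in COL p53, 1699 to 2399 in COL BRAFp53, 0 to 279 in COL BRAFp53 minus BRAF, 3573 to 5343 in SI BRAF, 887 to 1333 in SI BRAFp53, 597 to 2128 in SI BRAFp53 minus BRAF, 1202 to 1833 in BRAF, 3 to 46 in p53 and 235 to 723 in BRAFp53 COL minus SI.

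Without 1 library, the change ranged from -0.08 to 0.81 for Vim in COL p53, from -0.19 to 0.01 for Epcam in COL BRAFp53, from -0.02 to 0.08 for Epcam in SI BRAFp53, from -0.34 to 0.33 for Cav2 in COL BRAFp53 minus BRAF and from -0.23 to 0.06 for Cdh1 in BRAF COL minus SI. The Cdh17 off difference was -0.01 in limma-voom, -0.28 without the COL p53 culture and -0.04 with libraries kept apart, where 5 members and 11266 genes passed. Without the SI BRAFp53 or SI p53 culture, 2781 and 2479 genes passed. Counts near 3 limit Snai1, Snai2, Zeb1 and SI caveolins.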
